A study of Yarrowia lipolytica with 6 samples.

Results

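The alcohol dehydrogenase genes of the oil yeast Yarrowia lipolytica, ADH1 to ADH7 and the formaldehyde dehydrogenase gene FADH, were followed in a strain without the protein kinase Snf1. The 8 genes were taken by name, as the rows of the authors' deposited table with the locus tags YALI0_D25630g (ADH1), YALI0_E17787g (ADH2), YALI0_A16379g (ADH3), YALI0_E15818g (ADH4), YALI0_D02167g (ADH5), YALI0_A15147g (ADH6), YALI0_E07766g (ADH7) and YALI0_F09603g (FADH). They are 8 of the 2840 genes in that table. The files themselves give a name to ADH7 alone, and the other names are those in use for these tags. The letter after YALI0 in a tag is the chromosome, so ADH3 and ADH6 are on chromosome A, ADH1 and ADH5 on D, ADH2, ADH4 and ADH7 on E and FADH on F. Start and end positions are not used here, because those in the deposited table do not follow the order of the tags.

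Alcohol dehydrogenases convert alcohols and aldehydes into each other with a nicotinamide cofactor. When yeasts of this kind live on alkanes, cytochrome P450 enzymes of the ALK family first turn the alkane into a fatty alcohol, alcohol dehydrogenases or a fatty alcohol oxidase turn that into a fatty aldehyde, and aldehyde dehydrogenases turn the aldehyde into a fatty acid for beta-oxidation. FADH belongs to a separate class, the glutathione-dependent formaldehyde dehydrogenases, known in Saccharomyces cerevisiae as SFA1. In Saccharomyces cerevisiae, Snf1 is needed to switch on a glucose-repressed alcohol dehydrogenase gene that is also called ADH2. A shared name between the 2 yeasts does not mean that the genes are counterparts.

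RNA came from 3 cultures of CXAU/AI, which the submitters label as wild type, and 3 of a snf1 deletion strain, for which the labels name homologous recombination. Both strains were grown for 24 h at 30 °C in SG medium with uracil, then washed and kept for 1 h with 2% n-decane, an alkane, and 1% uracil. The labels also name Triton, at 0.1%, for the cultures of both strains. No library was made from cells without decane, so every difference below is one between strains on decane. The labels call the samples biological replicates, and nothing in them says whether the deletion cultures come from 1 clone or several. Libraries held 32315239 to 38054417 counts. SNF1 itself was read 2546 to 3644 times per wild type library and not at all in the deletion libraries, which makes it at least 1023-fold lower with a floor of 3 counts per library.

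The authors counted reads per transcript, and the count rows carry RefSeq names instead of locus tags. For 7 of the 8 genes a count row was found, with ADH4 the exception. Levels are CPM, reads scaled to a common library size after TMM scaling, given as mean ± SD with n = 3. They are averages over a culture, in which fewer expressing cells and less RNA per cell cannot be told apart. CPM is not divided by transcript length, so levels are compared between strains for the same gene, and between genes only through ratios that are followed from one strain to the other. Changes are log2 fold changes of the deletion over wild type from edgeR's quasi-likelihood test, adjusted by Benjamini-Hochberg over all 7244 tested features, with a call at an adjusted p below 0.05.

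Of the 7 genes with a count row, 5 fell in the deletion, 1 rose and 1 did not pass the test. All 7 were taken from the authors' deposited table, which lists only genes past their own test in the same 6 libraries. Its fold changes were also among the values used to find the count rows. The number of members called was thus largely fixed beforehand, and nothing is read from it against the shares of all features. Among all tested features, 18.7% were called lower and 18.3% higher, or 37.1% in either direction. The median log2 fold change of the 7 genes was -4.67, beside 0.04 for all tested features. In none of the 7 did the wild type and deletion libraries overlap, as was also so for 49.4% of all features. Genes that had already passed a test in these libraries would mostly show no overlap. Neither this nor the median is therefore read as a trait of the family.

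**Figure D1:**
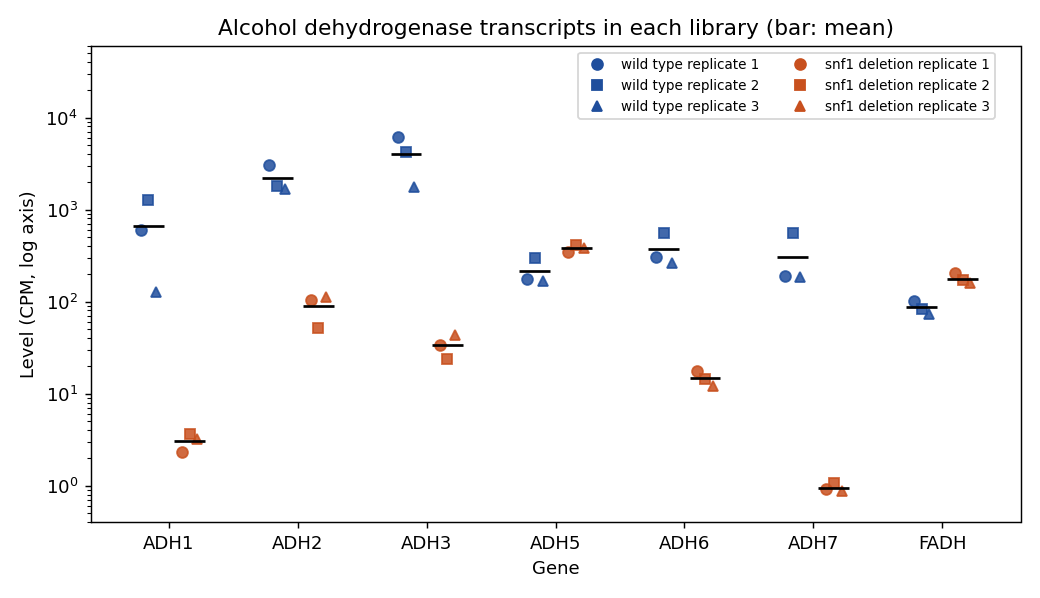
Level of 7 alcohol dehydrogenase genes in each of the 6 libraries, in CPM on a log axis, with a bar at the mean of each group of 3. ADH1, ADH2, ADH3, ADH6 and ADH7 lie far lower in the deletion, while ADH5 and FADH lie somewhat higher, and ADH1 has the widest wild type spread.

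ADH7 had the largest fall of the family. Its wild type libraries held 189, 554 and 183.5 CPM, and its deletion libraries 0.914, 1.08 and 0.867 CPM. Replicate 2 stood well above the other wild type libraries, and the deletion libraries lay close together near 1 CPM, where 32 to 45 reads per library still marked the transcript. The mean went from 309 ± 212 CPM to 0.953 ± 0.111 CPM, which leaves 0.309% of the wild type level. The log2 fold change was -8.33 (SE 0.59, adjusted p = 9.75e-07), and 7 of the 7244 tested features fell by more. Without wild type replicate 2 it was -7.59.

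ADH1 was almost as deeply reduced. It stood at 607, 1277 and 128 CPM in wild type and at 2.31, 3.67 and 3.22 CPM in the deletion. The wild type libraries were spread over a 9.99-fold range, and even the lowest of them, replicate 3, lay far above every deletion library. With 91 to 153 reads per deletion library, ADH1 was still detected, at 0.457% of its wild type mean. The log2 fold change was -7.77 (SE 0.79, adjusted p = 9.88e-06), and it ranged from -8.26 without wild type replicate 3 to -6.88 without wild type replicate 2.

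ADH3 took the most reads of the family in every wild type library. Its wild type libraries held 6092, 4187 and 1750 CPM and its deletion libraries 34.2, 23.9 and 43.2 CPM. Replicate 3 was again the lowest of wild type, and the groups were far apart. Its mean was 4010 ± 2176 CPM in wild type and 33.7 ± 9.64 CPM in the deletion. This is a 119-fold fall, or -6.89 on the log2 scale (SE 0.63, adjusted p = 4.01e-06).

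ADH2 and ADH6 fell by less, 24.6-fold and 25.5-fold. ADH2 had 3064, 1812 and 1668 CPM in wild type and 103, 51.3 and 112 CPM in the deletion, where 4.07% of the wild type mean was left. ADH6 had 303, 555 and 264 CPM in wild type and 17.8, 14.2 and 12.0 CPM in the deletion, where 3.92% was left. In both genes the lowest wild type library stood 14.9-fold above the highest deletion library. The log2 fold changes were -4.62 for ADH2 (SE 0.50, adjusted p = 1.71e-05) and -4.67 for ADH6 (SE 0.43, adjusted p = 4.01e-06).

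ADH4 could be read with confidence from the authors' deposited table only. It is at -6.16 on the log2 scale in the authors' deposited table (SE 0.34, adjusted p = 1.54e-71 in their DESeq2 test), with a mean of 5254 normalised counts. The numbers that StringTie gave to the loci leave 2 count rows as possible places for ADH4, and one of them holds a single read in all 6 libraries (1 count). The other, rna-XM_503997.1, has a normalised mean of 3858, well short of the deposited 5254, so it was not taken as ADH4. Its counts were 9232, 5306 and 5949 in wild type and 118, 152 and 162 in the deletion, with an edgeR estimate of -5.86 on the log2 scale (SE 0.41).

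FADH, the formaldehyde dehydrogenase gene, moved the other way. It stood at 102, 83.2 and 74.0 CPM in wild type and at 202, 172 and 158 CPM in the deletion. All deletion libraries were above all wild type libraries, and the libraries of each strain lay close together. The mean was 86.4 ± 14.1 CPM in wild type and 2.05-fold higher in the fit (log2 1.04, SE 0.31, adjusted p = 0.019) at 177 ± 22.7 CPM in the deletion. Dropping a library ended the call in 3 of 6 cases. The adjusted p was 0.071 when wild type replicate 3 was left out, 0.0551 when deletion replicate 1 was, and 0.0598 when deletion replicate 3 was.

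ADH5 was the member whose call differed between tests. It had 178, 299.6 and 166 CPM in wild type and 346, 416 and 382 CPM in the deletion. The groups did not overlap, although wild type replicate 2 came near the lowest deletion library. The log2 fold change was 0.83 (SE 0.36, 95% interval 0.06 to 1.59 before adjustment), with an adjusted p of 0.0823 in edgeR and of 0.0647 with DESeq2 on the deposited counts. The authors' deposited table lists ADH5 as higher by 0.86 with an adjusted p of 0.0345. Without wild type replicate 2 it passed (1.16, adjusted p = 0.037). Under scaling by library size only, or by the upper quartile, the median of all features moved up by 0.36 or 0.35 on the log2 scale, and ADH5, at 1.23 or 1.22, passed there too.

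ADH5 also lies near the deleted gene. Its StringTie locus number is 3 above that of SNF1, with 2 count rows between them. Those rows, rna-XM_502313.1 and rna-XM_502314.1, had log2 fold changes of 0.73 (SE 0.33, adjusted p = 0.0978) and 0.96 (SE 0.44, adjusted p = 0.104). On the other side of SNF1, the nearest row fell by 1.32 on the log2 scale (SE 0.33, adjusted p = 0.00714), the next changed by -0.87 (adjusted p = 0.053) and the third by 0.66 (adjusted p = 0.167). Whether the place of ADH5 beside the deletion had a part in its level was not tested.

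**Figure D2:**
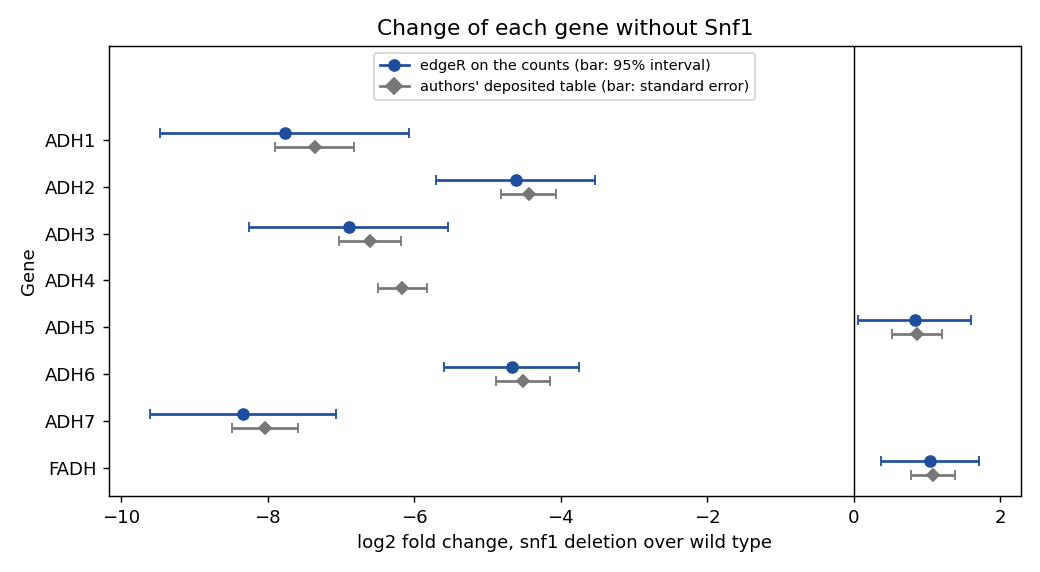
Log2 fold change of each of the 8 genes, deletion over wild type, from edgeR on the counts with 95% intervals and from the authors' deposited table with standard errors. The edgeR point estimates lie in 3 ranges: ADH1, ADH3 and ADH7 near -7 to -8, ADH2 and ADH6 near -5, and ADH5 and FADH near 1. ADH4 is at -6.16 in the deposited table, between the first 2 ranges. The intervals do not keep these 2 apart: that of ADH3 ends at -5.54, and those of ADH2 and ADH6 begin at -5.70 and -5.59.

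In the authors' deposited table, which holds only genes past their own test, 6 of the 8 members are lower and 2 higher, and 51.4% of all its genes are lower. It lists ADH7 at -8.04, ADH1 at -7.36, ADH3 at -6.60, ADH6 at -4.52, ADH2 at -4.44 and FADH at 1.08. The table was made from the same libraries, and the fold change was among the values used to find the count rows. It is therefore no second measurement of these genes.

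To compare the paralogues with each other, the log2 ratio of their counts was taken within each library, which needs no scaling between libraries. Of the 21 pairs that 7 genes make, 16 had ratios that did not overlap between the strains and 5 had ratios that did. For pairs drawn from all features this share was not computed, and 49.4% of single features did not overlap in CPM. The count of 16 is therefore not read as a trait of the family. The 5 overlapping pairs were ADH1 with ADH3, ADH1 with ADH7, ADH3 with ADH7, ADH2 with ADH6, and ADH5 with FADH. A shift of a ratio is the difference between the changes in mean log2 counts of its 2 genes, so this largely restates their sizes of change. Those changes are plain means over libraries, so a shift need not equal the difference between 2 edgeR estimates. The pairs of ADH7 were the less settled ones: without wild type replicate 1 its ratios to ADH1 and to ADH3 no longer overlapped between strains, nor did the ratio to ADH1 without deletion replicate 1, or that to ADH3 without deletion replicate 2. Each pair was tested with an exact two-sided permutation test, for which 0.1 is the smallest p that 3 against 3 libraries allow, so none could pass 0.05, and the smallest p adjusted over the 21 pairs was 0.131.

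Among the 16 pairs without overlap the shifts reached 9.17 on the log2 scale, and the ratio of ADH2 to ADH3 shifted least. On the log2 scale it was -0.99, -1.21 and -0.07 in the wild type libraries and 1.60, 1.10 and 1.38 in the deletion libraries. ADH3 thus gave more reads than ADH2 in every wild type library, and ADH2 gave more in every deletion library (exact permutation p = 0.1, adjusted over pairs 0.131). ADH6 against ADH7 moved further, from 0.40 ± 0.35 to 3.91 ± 0.30 (SD, n = 3).

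The 5 overlapping pairs differed in how far they moved. ADH2 over ADH6 was 2.57 ± 0.82 in wild type and 2.53 ± 0.68 in the deletion (exact permutation p = 1), and ADH5 over FADH was 1.27 ± 0.53 and 1.11 ± 0.29 (p = 0.8 in the same exact test). ADH1 over ADH3 was -2.94 ± 1.08 and -3.44 ± 0.64 (exact permutation p = 0.6). ADH3 over ADH7 moved from 3.73 ± 1.12 to 5.09 ± 0.59, and ADH1 over ADH7 from 0.79 ± 1.16 to 1.65 ± 0.29 (exact permutation p = 0.2 for each). With spreads of this size moderate differences would go unseen, and a p that misses the threshold does not show that 2 genes respond alike.

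**Figure D3:**
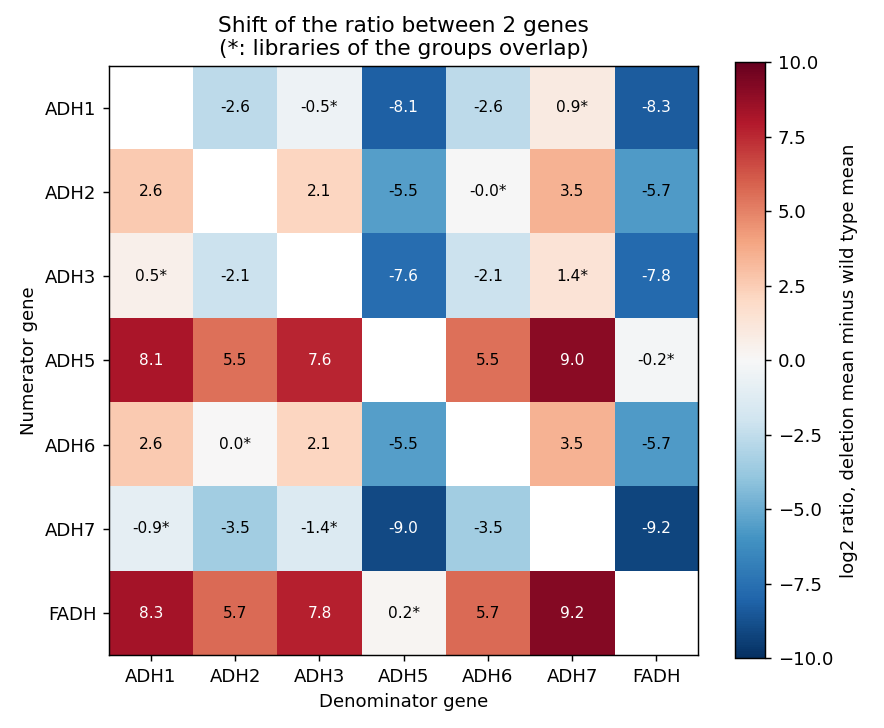
Shift of the log2 ratio between each pair of 7 genes, as the deletion mean minus the wild type mean, with the gene of the row over the gene of the column. The starred pairs, whose libraries overlap between strains, are 3 among ADH1, ADH3 and ADH7, that of ADH2 and ADH6, and that of ADH5 and FADH.

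The make-up of the family's reads turned over. Together the 7 genes took 0.690 ± 0.299% of all counts in wild type, with 0.991, 0.685 and 0.394% in replicates 1, 2 and 3. In the deletion they took 0.0795 ± 0.0039%, and the Wilson 95% intervals of single libraries were at most 0.00668 percentage points wide. Wild type replicate 3 had the lowest share of wild type and still lay well above all deletion libraries.

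In wild type, ADH3 gave 49.0 ± 8.31% of the family's reads and ADH2 29.7 ± 9.38%, while ADH5 gave 3.01 ± 1.17% and FADH 1.22 ± 0.457%. In the deletion, ADH5 gave 54.5 ± 6.05% and FADH 25.3 ± 3.21%, while ADH3 gave 4.80 ± 1.29% and ADH2 12.6 ± 4.46%. ADH1 went from 7.78 ± 6.03% to 0.439 ± 0.106%, ADH6 from 5.15 ± 1.97% to 2.10 ± 0.412% and ADH7 from 4.15 ± 2.27% to 0.136 ± 0.0191%. These are shares of reads, in which a longer transcript weighs more, and ADH4 is not in them. The share of ADH5 in the deletion is taken of a lower total, and its CPM did not pass the test between strains.

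**Figure D4:**
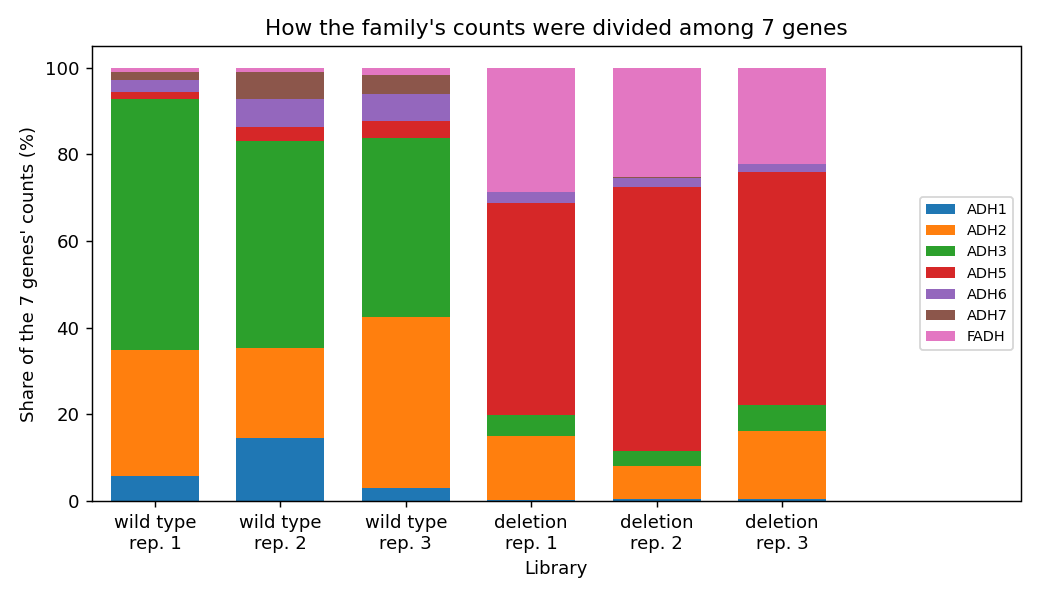
Share of the counts of 7 genes held by each, in percent, for each of the 6 libraries, stacked to 100%. ADH3 and ADH2 fill most of the wild type bars, at 49.0% and 29.7% on average, and ADH5 and FADH most of the deletion bars, at 54.5% and 25.3%.

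The genes also differed in how evenly wild type cultures expressed them. The ratio of the highest to the lowest wild type library was 9.99 for ADH1, 3.48 for ADH3 and 3.02 for ADH7, but 1.84 for ADH2, 1.80 for ADH5 and 1.38 for FADH, with ADH6 at 2.10. Among 4895 tested features with a mean of at least 10 CPM, the median ratio was 1.69, and 99.6% had a smaller one than ADH1, 94.1% than ADH3 and 91.5% than ADH7. The 3 genes with the deepest falls were thus the most uneven of the 7 among wild type cultures.

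With TMM scaling, wild type replicate 3 was the lowest for each of the 7 genes (with library size only, replicate 2 was the lowest for ADH2 and FADH). It was also the lowest for SNF1, at 74.7 CPM against 114 and 115 CPM. Over the same 4895 features, replicate 3 was the lowest in 29.6%, and in 35.0% of the 1193 of them that were lower in the deletion. The highest library was replicate 2 for ADH1, ADH5, ADH6 and ADH7, and replicate 1 for ADH2, ADH3 and FADH. Over the 4895 features, replicate 2 was the highest in 35.8% and replicate 1 in 38.9%. Among the 1193 that were lower in the deletion, these shares were 57.8% and 26.9%, so a high replicate 2 was common among falling features. Whether the level of SNF1 had a part in these differences between cultures was not tested.

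**Figure D5:**
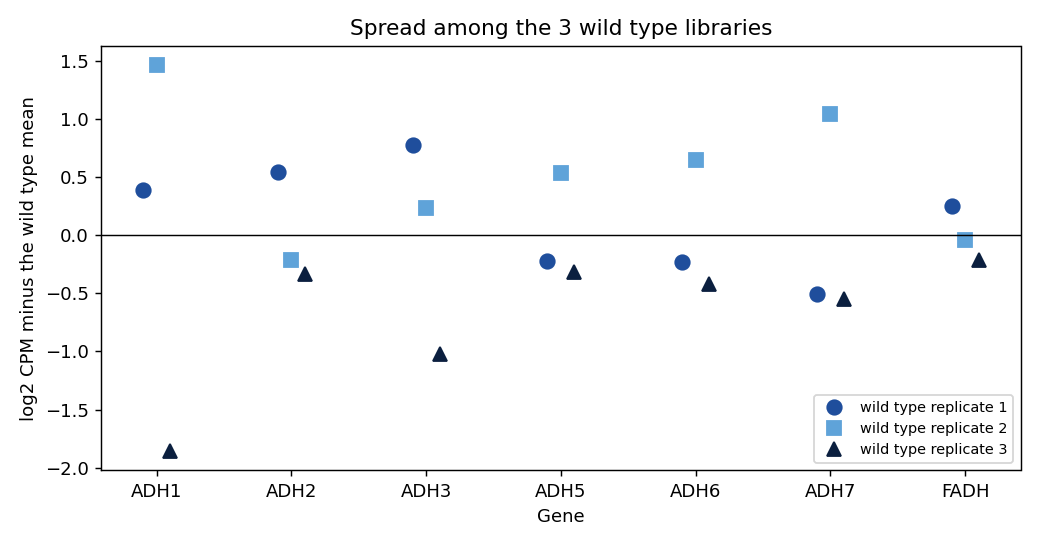
Deviation of each wild type library from the wild type mean of log2 CPM, for 7 genes. With TMM scaling replicate 3 is the lowest point for each gene (with library size only, replicate 2 is for ADH2 and FADH), and the points of ADH1 lie furthest apart, over a 9.99-fold range in CPM.

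The features with profiles most like those of ADH1 and ADH7 were sought among 4888 features of at least 10 CPM outside the family, by the Euclidean distance of log2 CPM over the 6 libraries after each profile was centred. For ADH7 the nearest was POX1, an acyl-CoA oxidase gene of peroxisomal beta-oxidation, at a distance of 0.81. POX1 stood at 560, 1803 and 1052 CPM in wild type, high in replicate 2 as ADH7 was, and at 4.24, 5.08 and 3.20 CPM in the deletion. YALI0_E05951g and YALI0_D00176g followed, at 1.23 and 1.30.

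For ADH1 the nearest were YALI0_E12573g at 1.58, YALI0_A14234g at 1.98 and ALK11, a cytochrome P450 gene, at 2.22. None of these came as near as POX1 did to ADH7. ALK11 had 184, 294 and 201 CPM in wild type, and so without the low replicate 3 of ADH1. Since the 2 strains differ so much, these distances give most weight to the size of the fall.

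The count rows directly beside each member in the table, which follow the numbered StringTie loci, were read as well. Of these 14 rows, 3 were lower, 1 was higher, 9 did not pass and 1 had too few counts to be tested, beside 37.1% of all tested features called in either direction. These 4 called rows are named after their values were seen. The higher one was MSTRG.4712.1 beside ADH7, at 2.13 on the log2 scale (SE 0.35, adjusted p = 0.000495). The lower ones were both rows beside ADH3, with log2 fold changes of -2.08 for MSTRG.592.1 (SE 0.55, adjusted p = 0.0101) and -4.26 for YALI0_A16445g (SE 0.56, adjusted p = 7.53e-05), and 1 row beside ADH6 at -1.21 (SE 0.35, adjusted p = 0.0147). YALI0_A16445g was much weaker than ADH3 in reads, at 14.8 ± 9.86 CPM in wild type and 0.771 ± 0.254 CPM in the deletion. MSTRG.592.1 was weaker still, at 2.07 ± 0.453 CPM in wild type and 0.485 ± 0.229 CPM in the deletion. The rows beside ADH1, ADH2, ADH5 and FADH did not pass.

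The steps before and after the alcohol dehydrogenases were followed with a list of 17 genes: the fatty alcohol oxidase gene FAO1 (YALI0_B14014g), 4 fatty aldehyde dehydrogenase genes and ALK1 to ALK12. Of these, 12 were found in the authors' deposited table, all 12 lower, and 5 were not found there. FALDH3 and FALDH4 were sought by tag and are not listed. ALK genes were sought by name alone, and 28 of the 2840 genes there carry a name. The ALK genes not found may thus be listed there without a name, in either direction. All 12 were tied to a count row and all 12 fell in edgeR, with a median log2 fold change of -4.76, where 18.7% of all features were lower. A gene is listed there if it passed the authors' own test in the same 6 libraries, and the ties used those fold changes, so this count was fixed beforehand and nothing is read from it. The 5 genes that were not found there were not tested. The largest falls were those of FALDH1 at -9.92 (SE 0.71, adjusted p = 9.75e-07), ALK5 at -8.48, ALK9 at -7.44 and ALK11 at -6.92. FAO1, named here after its value was seen because it encodes the other route from fatty alcohol to aldehyde, fell from 5809 ± 1652 CPM to 1163 ± 253 CPM. Its log2 fold change of -2.32 (SE 0.45, adjusted p = 0.00157) was smaller than that of each ADH gene that fell.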

How the data were processed

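RNA was sequenced from 3 wild type and 3 snf1 deletion cultures, and the labels' protocols name a directional library kit. The authors deposited whole-number counts per transcript for each library (9235 rows). Trimmomatic 0.38.0 and HISAT2 2.2.1 are named in the submitters' processing notes, as are StringTie and, in version 2.11.40.7, DESeq2. For genome build, counting options, use of strand and reads shared by paralogues, the authors' choices are not stated here. Reads of similar or overlapping genes may therefore have been split or dropped. A second deposited file, the authors' DESeq2 comparison, lists 2840 genes. In it the means are a signal of normalised counts, the log2 fold changes and standard errors are read as scores given by the authors, and the adjusted p-values are the authors' own, all under 0.05. A stray line without a gene was left out (1 line).

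Counts were compared with edgeR 4.0.16 (R 4.3.3) after TMM scaling, without covariates. Features passed filterByExpr with its default minimum count (10) and total (15). Calls were made at 0.05 after Benjamini-Hochberg adjustment, and each standard error was computed as the absolute log2 change over the root of F. Intervals of single shares, and floors, hold for counting error alone. The comparison was tested on simulated data. Alternatives used limma 3.58.1 and DESeq2 1.42.0.

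Count rows were tied to locus tags through the mean, the shrunken fold change and its standard error, among rows of the same chromosome, where the match was mutual and clear of the next row. This tied 5 members. ADH5 and FADH were each nearest to a row but less clear of the next (distances 1.42 and 1.65 against 4.61 and 3.96). They were accepted because the StringTie locus number, which uses no measured value, pointed to the same row. Of 751 genes placed both ways, 748 had the same row. No transcript lengths of this annotation were at hand, so shares are not per length, and promoter and protein comparisons that had been planned were not made. All 8 members are named, with SNF1 as the check of the labels, up to 4 genes of the pathway list by size of change, and the 3 features most like ADH1 and ADH7. The members and lists were chosen with earlier results of these data known.

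Libraries of 1 strain differed by more than sampling noise (lowest chi-square per feature 298.7), with Spearman's rho of 0.942 to 0.977 for log2 CPM.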

Additional observations from a re-analysis of the deposited data

How the results depend on the processing

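The 5 falls (ADH1, ADH2, ADH3, ADH6, ADH7) kept their direction and stayed past the threshold under all 14 alternatives: other scalings, filters and tests, the replicate number as a block, and each library left out. ADH5 passed with library size only (1.23, adjusted p = 0.013) and with upper-quartile scaling (1.22, adjusted p = 0.0123), which raised the members called higher from 1 to 2. With a library left out ADH5 ranged from 0.68 to 1.16 and FADH from 0.95 to 1.17, and the members called higher from 0 to 2. FADH was lost in 3 of these 6 fits. The count of all features called higher was 2005 with upper-quartile scaling against 1329, and 873 to 1351 with a library left out. Of all calls, 67.5% were higher under either of these scalings, against 49.5%. Same-numbered libraries had correlated deviations of 0.05, 0.15 and 0.14, against -0.16 to 0.08 for libraries of different number. All of these are small, but they do not exclude a shared batch by number. The labels state no batch, and the main fit did not take the numbers as pairs. The replicate block gave log2 fold changes of 0.88 for ADH5 (adjusted p = 0.0572) and 1.04 for FADH (adjusted p = 0.0214) and changed no call of a member. Pairs of paralogues without overlap numbered 16 to 18 with a library left out and 16 with a prior count of 5 in place of 0.5. With the mean and chromosome alone, 1 of the 7 members was tied to its row, while the locus numbers alone, an alternative chosen after seeing the data, gave 7. Of the other 12 pathway genes, 11 or 12 fell under each alternative. At this depth the lowest member level, ADH7 in the deletion, rests on 32 to 45 counts per library. The cause of these changes between settings was not tested.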
